A study of Rattus norvegicus with 11 samples.

Results

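Insulin receptor signalling was described through 10 genes of rat fat. They were the receptor Insr, its substrates Irs1, Irs2 and Irs3, the brakes Ptpn1, Pid1, Grb10 and Grb14, the kinase Akt2 and the glucose transporter Slc2a4. They were chosen by their roles with earlier results of the same comparison known, in which Ptpn1 and Pid1 were already among the genes past the threshold. Their differences between treatments are therefore a description, and the p-values printed for them only place each gene among all genes fitted. All 10 were found, each on 1 row, among the 25275 rows of the count table, and all 10 passed the filter on low counts.

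The tissue was retroperitoneal white fat of 11 female Wistar rats, with RNA sequenced from each rat separately. Every rat was 10 weeks old at the start, had 6 weeks of western diet, lost its ovaries, and then received degarelix, which blocks the receptor for gonadotropin-releasing hormone and so lowers the rat's own luteinizing and follicle-stimulating hormone (FSH). Pumps held vehicle in 6 rats (degarelix only) or delivered 6 µg of FSH per kg per day in 5 rats (degarelix plus FSH). Food was restricted for 12 days and free for 7 days, and tissue was taken at 19 weeks of age after a fast of 4 h. No group with ovaries or without degarelix was analysed here, so the comparison is added FSH against vehicle on that shared background. Below, "without FSH" means without added FSH.

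Insulin binds the receptor tyrosine kinase encoded by Insr, which phosphorylates the substrate proteins of the IRS family. These recruit phosphatidylinositol 3-kinase, and its lipid product leads to activation of AKT kinases, of which AKT2 is the form most tied to glucose uptake in fat and muscle. AKT2 then drives vesicles holding GLUT4, the product of Slc2a4, to the cell surface, and it keeps FOXO transcription factors out of the nucleus. The phosphatase PTP1B, encoded by Ptpn1, removes phosphate from the receptor, and the adaptors GRB10 and GRB14 bind the active receptor and block its kinase.

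Total counts lay between 13163021 and 23694602 per library, with a mean of 19947500 without FSH and 16370100 with FSH (p = 0.0649, two-sided exact permutation test). Values are CPM, counts scaled to a library total of 1000000 after TMM correction of that total. The members held between 41 counts (Irs1) and 12422 counts (Slc2a4) in a library. The adipocyte marker list (10 of 10 genes found) summed to between 49745 and 65468 CPM without FSH and between 52386 and 65176 CPM with FSH, a ratio of group means of 0.993. Most of that sum came from Lpl, Fabp4 and Adipoq. Single markers went both ways, with none at an adjusted p under 0.05 in edgeR's quasi-likelihood test. The log2 change with FSH was 0.30 for Fabp4 (adjusted p = 0.103), -0.28 for Lpl (adjusted p = 0.281) and -0.62 for Lep (adjusted p = 0.0790). Defining markers of kidney (Umod) and pancreatic islets (Ins1 and Gcg) were at 0 in every library, and Cyp11b2 of the adrenal cortex was as well. The islet gene Ins2 reached at most 0.0606 CPM. The kidney list (5 of 5 genes found) summed to at most 0.186 CPM without FSH and 0.297 CPM with FSH. The skeletal muscle list (6 of 8 genes found) summed to between 11.5 and 17.2 CPM without FSH and between 11.6 and 14.2 CPM with FSH, mostly from Tnnt3 and Mb, while Ckm and Acta1 stayed under 1 CPM. The adrenal list (5 of 6 found) summed to between 50.8 and 69.1 CPM without FSH and between 51.4 and 62.2 CPM with FSH, nearly all from Cyp11a1 and Star. The pancreas list held 1 gene above the filter, Cpa1, which made up nearly all of its sum. That sum lay between 83.8 and 275 CPM without FSH and between 118 and 245 CPM with FSH. Of 12 marker lists, none passed adjustment. The lowest unadjusted p was that of the endothelial list, which ranged from 1367 to 1865 CPM without FSH and from 1559 to 2497 CPM with FSH (ratio 1.26, unadjusted p = 0.0281 and adjusted p = 0.338, exact permutation test); its part in the members' differences was not tested. FSH replicate 3 stood apart in myelin genes, with 1313 CPM of Mbp against 52.1 to 90.9 CPM in the other 10 libraries.

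With FSH, 3 of the 10 members were lower past an adjusted p of 0.05 in edgeR's quasi-likelihood test: Irs3, Ptpn1 and Pid1. The choice of members used this comparison, so nothing is read from this share. For all 12846 genes tested, 2.27% passed in either direction and 1.07% passed as lower. None of the members was higher past the threshold, where 155 of all genes were. At an unadjusted p under 0.05 in the same test, 5 members were lower and 0 higher, where 1393 and 1511 of all genes were. DESeq2 called no member higher, and it called 10% of its genes in either direction. Nothing is read from these counts either. In 4 members, the same 3 and Akt2, every FSH rat lay below every degarelix only rat. Such separation was seen in 1.8% of all genes as lower and 2.54% as higher. The members' median log2 change was -0.34, against 0.01 over all genes, and because of the same choice nothing is read from this difference. In whole tissue, a lower number of adipocytes and less RNA per adipocyte cannot be told apart, and the adipocyte marker sums are given above.

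**Figure D1:**
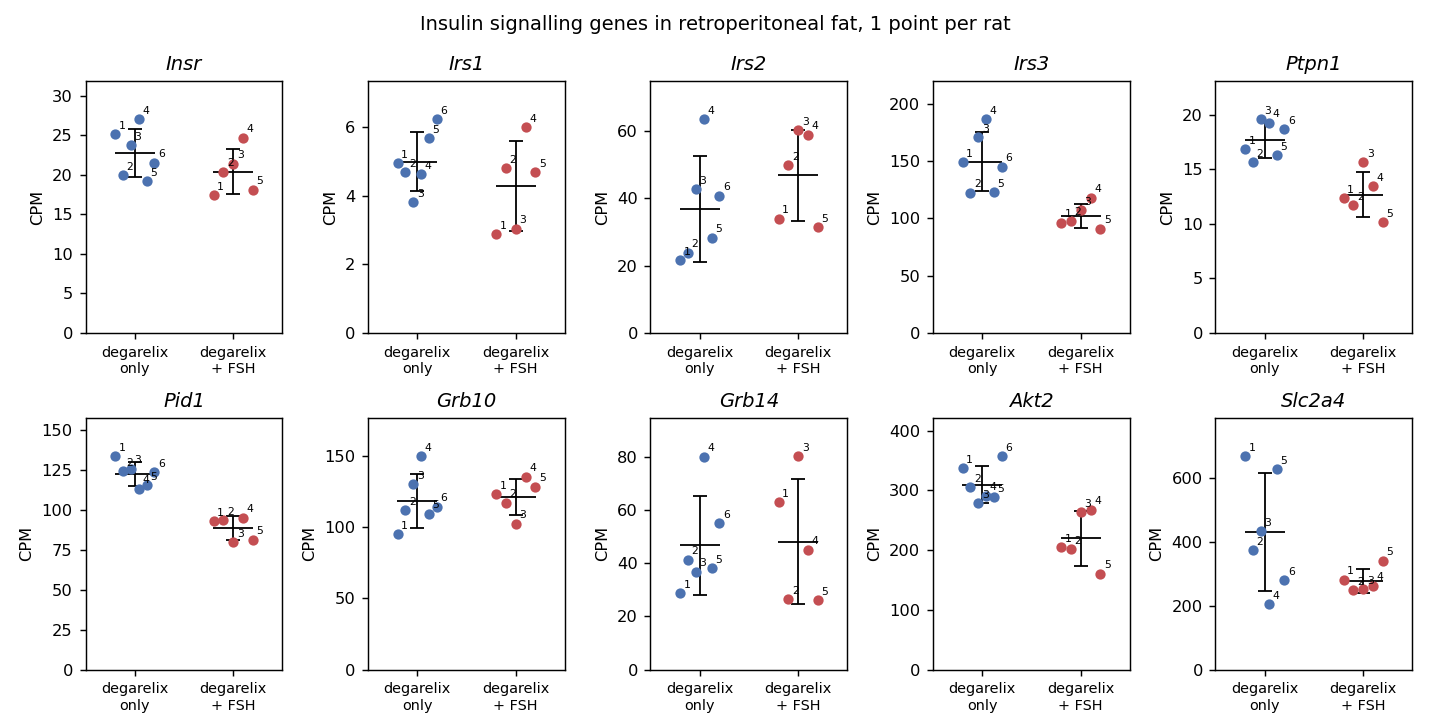
CPM of the 10 genes (vertical axes from 0) in each rat of both groups, with replicate numbers beside the points and bars for the mean and SD. The FSH points of Irs3, Ptpn1, Pid1 and Akt2 all lie below the degarelix only points, and those of the other 6 genes overlap them.

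The receptor gene Insr (ENSRNOG00000029986) had 19.2, 22.6 and 27.0 CPM as the lowest, median and highest values without FSH. With FSH, the values in replicates 1 to 5 were 17.4, 20.4, 21.4, 24.7 and 18.1 CPM. The groups overlapped broadly, although 4 of 5 FSH rats lay below the degarelix only mean of 22.8 CPM. The log2 change was -0.16 ± 0.11 (SE, adjusted p = 0.417), a difference within the spread between rats, and it was -0.10 without degarelix only replicate 4.

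Irs3 (ENSRNOG00000001389), a substrate found in rodent adipocytes whose human counterpart is a pseudogene, was lower with FSH. Without FSH its lowest, median and highest values were 122, 147 and 186 CPM. With FSH the values were 96.3, 98.0, 107, 118 and 91.0 CPM. The highest FSH rat therefore stayed just under the lowest degarelix only rat. The group means were 149 ± 25.6 CPM (SD, n = 6) and 102 ± 10.5 CPM (SD, n = 5), and the log2 change was -0.55 ± 0.12 (adjusted p = 0.0372). It no longer passed when degarelix only replicate 1, 3 or 6, or FSH replicate 1, 2, 3 or 5, was dropped, with the highest adjusted p at 0.0954.

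The other substrates did not pass the threshold, and their difference from Irs3 was not tested. Irs1 (ENSRNOG00000014597), a main substrate in muscle and fat, was sparsely counted, with 3.82, 4.82 and 6.23 CPM as the lowest, median and highest values without FSH. It had 2.88, 4.81, 3.04, 6.00 and 4.70 CPM with FSH, and replicates 1 and 3 lay below the range of the degarelix only rats. The log2 change of Irs1 was -0.22 ± 0.20 (adjusted p = 0.542), and it lay between -0.37 without FSH replicate 4 and -0.11 without FSH replicate 1. Irs2 (ENSRNOG00000023509), the substrate whose transcription FOXO factors are known to raise, ran from 21.6 through a median of 34.5 to 63.3 CPM without FSH. It had 33.8, 49.7, 60.04, 58.8 and 31.4 CPM with FSH. Both groups spanned much of the same range, and the log2 change was 0.35 ± 0.28 (adjusted p = 0.494), between 0.23 without degarelix only replicate 1 and 0.57 without degarelix only replicate 4. The highest Irs2 value was that of degarelix only replicate 4, which within its group was also highest for Insr, Irs3, Grb10 and Grb14 and lowest for Pid1 and Slc2a4.

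Ptpn1 (ENSRNOG00000010574), the phosphatase gene, was lower with FSH. Its lowest, median and highest values without FSH were 15.7, 17.8 and 19.6 CPM. With FSH it had 12.4, 11.7, 15.7, 13.5 and 10.2 CPM. The groups only just separated, since FSH replicate 3 and degarelix only replicate 2 both round to 15.7 CPM. Means were 17.7 ± 1.66 CPM (SD, n = 6) and 12.7 ± 2.05 CPM (SD, n = 5), and the log2 change was -0.49 ± 0.11 (adjusted p = 0.0430). Ptpn1 passed in 3 of 11 fits with a rat dropped (degarelix only replicate 4, FSH replicate 3, FSH replicate 4), and dropping FSH replicate 1 gave the highest adjusted p of 0.103.

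Pid1 (ENSRNOG00000029735) encodes a protein with a phosphotyrosine interaction domain that, in excess, is known to lower insulin-stimulated glucose uptake of fat cells. It was the member with the narrowest spread and the smallest adjusted p. Without FSH it ranged from 113 through a median of 124 to 134 CPM. With FSH the values were 92.8, 93.5, 79.7, 95.1 and 81.3 CPM, all below the degarelix only rats with a clear gap. The means were 123 ± 7.37 CPM (SD, n = 6) and 88.5 ± 7.37 CPM (SD, n = 5), a log2 change of -0.47 ± 0.07 (adjusted p = 0.00890), and the call held with each of the 11 rats left out (adjusted p 0.0115 to 0.0353).

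The adaptor brakes showed no such difference. Grb10 (ENSRNOG00000004290), an imprinted gene, had 94.9, 113 and 149.9 CPM as the lowest, median and highest values without FSH and 123, 117, 102, 136 and 128 CPM with FSH. The FSH rats lay within the degarelix only range, and the log2 change was 0.03 ± 0.11 (adjusted p = 0.881). Grb14 (ENSRNOG00000052498) had 28.8, 39.7 and 80.1 CPM without FSH and 62.9, 26.5, 80.2, 45.1 and 26.01 CPM with FSH. It was among the most variable members in both groups (coefficients of variation of 39.6% and 48.9%), so its log2 change of 0.04 ± 0.33 (adjusted p = 0.959) sets no narrow limit on a difference. Without FSH replicate 3, which held the highest FSH value, its log2 change was -0.22.

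Akt2 (ENSRNOG00000018677) lay lower in every FSH rat and yet missed the threshold. Its lowest, median and highest values without FSH were 278, 298 and 357 CPM. With FSH it had 204, 202, 263, 268 and 161 CPM, so replicates 3 and 4 came close to the lowest degarelix only rat and replicate 5 lay far below. The means were 309.6 ± 30.9 CPM (SD, n = 6) and 219.6 ± 45.5 CPM (SD, n = 5). The log2 change was -0.50 ± 0.13, with an adjusted p of 0.0620 in edgeR's test. It passed without FSH replicate 4 (adjusted p = 0.0351) and in DESeq2 (adjusted p = 0.00624). DESeq2 called 10% of its genes, against 2.27% in edgeR's test.

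Slc2a4 (ENSRNOG00000017226), which encodes the insulin-regulated glucose transporter GLUT4, differed most between rats of the degarelix only group. There the lowest, median and highest values were 206, 405 and 669.6 CPM, with replicates 1 and 5 high and replicates 4 and 6 low. With FSH the values were 282, 249.5, 252, 263 and 341 CPM, all within the degarelix only range and below its mean. The coefficient of variation was 42.9% without FSH and 13.7% with FSH, a difference in spread that was not tested. The log2 change was -0.64 ± 0.27 (adjusted p = 0.191), and it was -0.47 without degarelix only replicate 1 and -0.78 without degarelix only replicate 4. The unadjusted p was 0.0363 in edgeR's quasi-likelihood test, and the difference did not pass adjustment over all genes.

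Promoters are shown for the 3 members past the threshold, and for Insr, whose promoter holds a FOXO motif. The sequences are RefSeq's for the assembly GRCr8, 250 bases ending just before the annotated start, 5′ to 3′ on the gene's strand. The table held 8 of the 10 members, without Irs2 and Slc2a4. Capitals mark matches to a GC box (GGGCGG, the letters bound by SP1-type factors) or to a FOXO element (GTAAACA), searched on both strands. Both motifs were picked after the members' values were known. Irs3 lies at chr12:24689680-24689929 (plus strand), Ptpn1 at chr3:177057483-177057732 (plus strand), Pid1 at chr9:92951169-92951418 (minus strand) and Insr at chr12:6128804-6129053 (minus strand).
Irs3: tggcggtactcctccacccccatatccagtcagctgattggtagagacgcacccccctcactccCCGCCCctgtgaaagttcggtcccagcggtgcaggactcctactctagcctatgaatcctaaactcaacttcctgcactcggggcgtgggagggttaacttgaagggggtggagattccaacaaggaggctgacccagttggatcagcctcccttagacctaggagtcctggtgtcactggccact
Ptpn1: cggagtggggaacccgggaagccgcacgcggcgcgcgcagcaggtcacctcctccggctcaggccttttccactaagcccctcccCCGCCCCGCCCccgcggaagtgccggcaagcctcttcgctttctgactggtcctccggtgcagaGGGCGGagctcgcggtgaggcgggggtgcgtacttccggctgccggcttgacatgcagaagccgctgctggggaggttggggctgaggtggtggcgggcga
Pid1: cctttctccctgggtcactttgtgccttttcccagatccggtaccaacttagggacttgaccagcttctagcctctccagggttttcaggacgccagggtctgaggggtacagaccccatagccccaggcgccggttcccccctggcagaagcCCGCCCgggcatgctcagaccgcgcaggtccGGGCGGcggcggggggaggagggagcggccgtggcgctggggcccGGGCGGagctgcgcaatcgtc
Insr: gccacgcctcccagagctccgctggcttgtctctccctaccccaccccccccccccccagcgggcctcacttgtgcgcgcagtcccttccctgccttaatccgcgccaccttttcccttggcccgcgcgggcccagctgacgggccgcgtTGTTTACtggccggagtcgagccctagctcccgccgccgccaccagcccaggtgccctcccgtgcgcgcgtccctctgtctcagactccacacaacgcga

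A GC box was present in 6 of the 8 member promoters (Irs1, Irs3, Ptpn1, Pid1, Grb10 and Grb14) and in 30.5% of all 33469 promoter windows of this length. Pid1 and Ptpn1 held 3 matches each, of which 2 in Ptpn1 share a base, and Irs3 held 1. The G and C content was 58% for Irs3, 71.6% for Ptpn1, 68.4% for Pid1 and 71.2% for Insr, against a median of 51.2% over all windows. The FOXO element stood in the Insr promoter alone among the 8, at 100 to 94 bases before the start on the other strand, and in 3.21% of all windows. These are matches of letters and show no binding.

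How the members varied from rat to rat within a treatment is a measure that their choice did not use. For each of the 45 pairs, log2 CPM values with the group means removed were correlated over the 11 rats. The pairs share their libraries and scaling, and 30 of 45 coefficients lay above 0, with a median of 0.17. Only Insr and Irs3 passed adjustment over the 45 pairs. Rats with more receptor mRNA had more Irs3 mRNA (Pearson r = 0.88, p = 0.000799, adjusted p = 0.0359; Spearman rho = 0.90, p = 0.00101; exact permutation within groups). The coefficient was 0.91 among the 6 degarelix only rats and 0.93 among the 5 FSH rats. Without the 2 rats farthest from the median of Insr it was 0.83 and no longer passed (adjusted p = 0.240), and with a single rat left out it lay between 0.85 and 0.92 and passed in 4 of 11 cases.

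**Figure D2:**
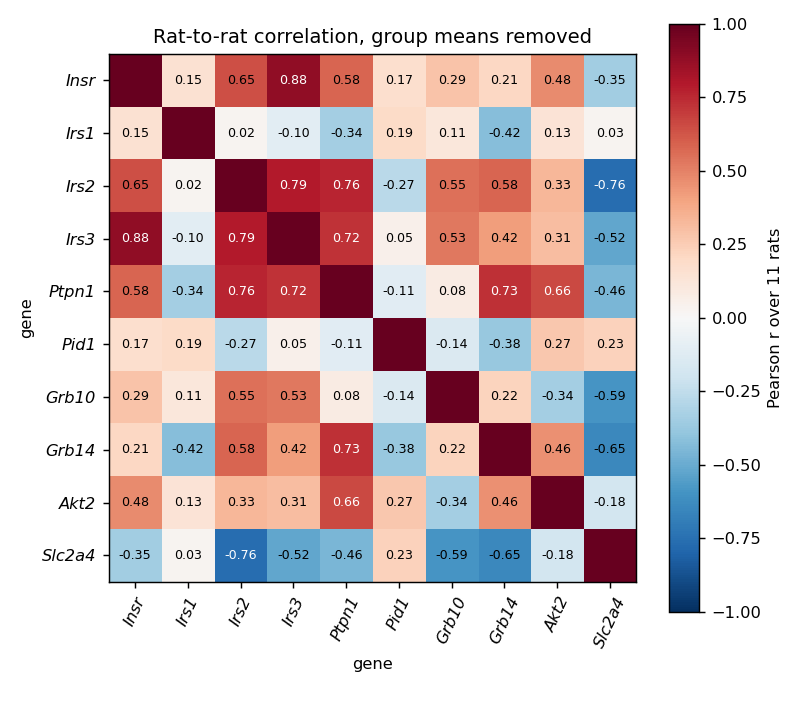
Pearson r between each pair of the 10 genes over 11 rats after group means were removed; colour runs from -1 (blue) to 1 (red). Insr and Irs3 have the highest coefficient at 0.88, and Irs2 and Slc2a4 the lowest at -0.76.

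A further 7 pairs had an unadjusted p under 0.05 and did not pass adjustment. Ptpn1 went with Irs2 (r = 0.76, p = 0.00581, adjusted p = 0.0717; rho = 0.82, p = 0.00553; exact permutation) and with Irs3 (r = 0.72, p = 0.00638, adjusted p = 0.0717; rho = 0.85, p = 0.00287; exact permutation). These coefficients were 0.84 without the 2 rats farthest from the median of Irs2, and 0.70 without the 2 farthest from that of Irs3. Irs2 and Irs3 had r = 0.79 (p = 0.0105, adjusted p = 0.0942; rho = 0.74, p = 0.0199; exact permutation). Slc2a4 ran opposite to Irs2 (r = -0.76, p = 0.0150, adjusted p = 0.112; rho = -0.66, p = 0.0415; exact permutation) and to Grb14 (r = -0.65, p = 0.00631, adjusted p = 0.0717; rho = -0.55, p = 0.0559; exact permutation). Both weakened, to -0.47 without the 2 rats farthest from the median of Irs2 and to -0.51 without the 2 farthest from that of Grb14. The last 2 pairs were Ptpn1 with Grb14 (r = 0.73, p = 0.0250, adjusted p = 0.161; rho = 0.65, p = 0.0521; exact permutation) and Insr with Irs2 (r = 0.65, p = 0.0451, adjusted p = 0.254; rho = 0.54, p = 0.112; exact permutation). Pid1 had no pair with an unadjusted p under 0.05, although it had the smallest adjusted p for FSH, and its coefficients lay between -0.38 with Grb14 and 0.27 with Akt2.

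**Figure D3:**
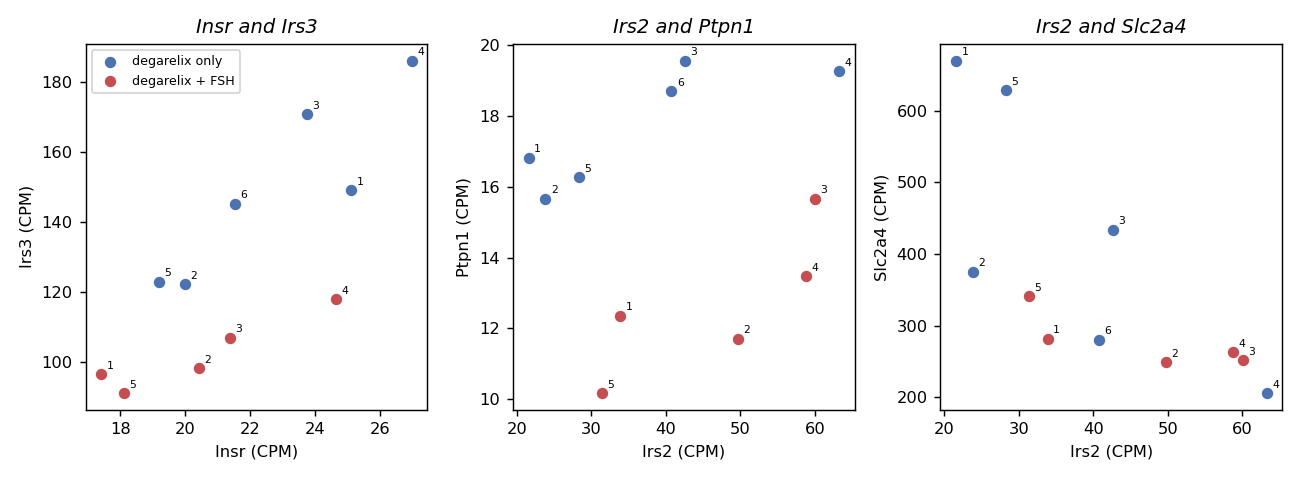
CPM of 3 pairs of genes, 1 numbered point per rat, blue for degarelix only and red for degarelix plus FSH. Within each colour, points with more Insr mostly have more Irs3 and points with more Irs2 mostly have more Ptpn1, while the highest Slc2a4 values lie at low Irs2.

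Among 9492 genes with a mean of at least 5 CPM, those whose rat-to-rat pattern was most like a member's were named as a description over 11 rats. For Slc2a4 they included Pdha1, a subunit of pyruvate dehydrogenase (r = 0.97), and the antioxidant enzyme Prdx6 (0.97). Those most like Irs2 were Zfand6, Sema4b and Slc33a1, the acetyl-CoA carrier of the endoplasmic reticulum (0.95 each). The nearest to Insr were the transcription factor Rfx2 (0.93), Nkap (0.89) and the member Irs3. Ptpn1 was followed by Tp53i13 (0.91), the protease Pcsk5 (0.90) and the thyroid hormone receptor Thra (0.88), and Pid1 by Ubac2 (0.93), Brcc3 (0.92) and Wdr26 (0.89).

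The wider insulin pathway was taken from a list of 89 genes sorted by role, with the 10 members left out. Of these, 83 were tested, 1 was called lower and 0 were called higher, which is 1.20% against 2.27% over all genes. At an unadjusted p under 0.05 there were 15 lower and 3 higher, 18 of 83, where 22.6% of all genes had such a p and 10.8% had it as lower. DESeq2 called 5 lower and 0 higher, where it called 10% of the 11297 genes it gave an adjusted p, and 4.99% as lower. The list's median log2 change was -0.06, with 54 genes below 0 and 29 above. The gene called was Rhoq (173.6 ± 22.1 to 131 ± 11.7 CPM, log2 change -0.40 ± 0.09, adjusted p = 0.0454), which encodes the small GTPase TC10 that takes part in moving GLUT4 to the surface of fat cells. Without FSH its lowest and highest values were 152 and 207 CPM, and with FSH it had 122, 119, 131, 148 and 137 CPM, so the groups did not overlap. Rhoq passed in 2 of 11 fits with a rat dropped, those without replicate 4 of either group, and its adjusted p rose to 0.113 when FSH replicate 1 was dropped.

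**Figure D4:**
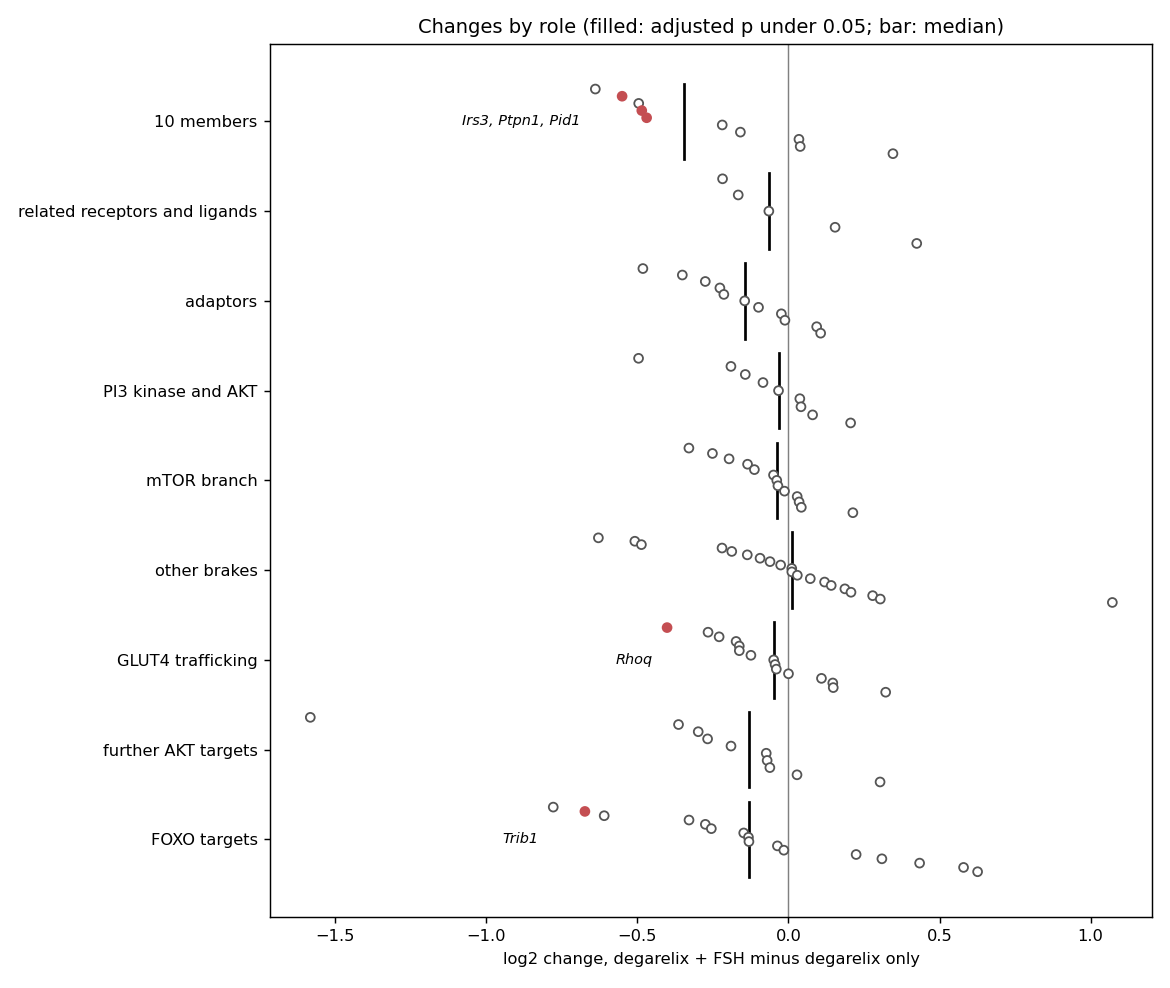
Log2 change with FSH (horizontal axis) of the 10 members and of the tested genes of each role, 1 circle per gene, filled and named from left to right where the adjusted p is under 0.05; black bars are medians. The members' median lies at -0.34, and the medians of the 7 pathway roles lie between -0.14 and 0.01. The members were chosen with results of this comparison known, so nothing is read from that difference.

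By role, none of the remaining genes passed the threshold, and the following are among the largest differences in each. Among adaptors (9 of 11 tested below 0), Gab2 had a log2 change of -0.48 ± 0.18 (adjusted p = 0.152). Crk, an adaptor that links phosphotyrosine proteins to the GTPase branch feeding TC10, averaged 24.3 ± 2.29 CPM in degarelix only rats against 19.1 ± 2.22 CPM under FSH (adjusted p = 0.0632; DESeq2 adjusted p = 0.00993). In the PI3 kinase and AKT group, Pik3cb, a catalytic subunit, had -0.50 ± 0.15 (adjusted p = 0.0955; DESeq2 adjusted p = 0.0272), and it was -0.37 without degarelix only replicate 6. In the mTOR branch, the log2 change was -0.33 for the inhibitor Deptor and -0.25 ± 0.07 for the scaffold Rptor (adjusted p = 0.0857; DESeq2 adjusted p = 0.0285). DESeq2 called 10% of its genes, against 2.27% in edgeR's test, and its values are not printed for every gene here.

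Igf1, the growth factor that binds the related IGF receptor, averaged 238 ± 68.7 CPM in degarelix only rats against 320.0 ± 72.9 CPM under FSH, a log2 difference of 0.42 ± 0.23 (adjusted p = 0.287), and Ide, which degrades insulin, had -0.22 ± 0.09. Of the 20 other brakes tested, 11 lay above 0 and 9 below. The largest differences there were those of Prkcq (1.07 ± 0.54, adjusted p = 0.264) and Grb7 (-0.63 ± 0.51, adjusted p = 0.490). For Grb7 it was -0.13 without degarelix only replicate 4, the highest rat at 8.41 CPM, and -0.029 in limma-voom with quality weights. Prkcq stood at 12.2 CPM in FSH replicate 3, the library with high myelin genes, and its log2 change was 0.01 without that library. The same library held 35.6 CPM of the glucose transporter Slc2a1, whose log2 change of 0.32 ± 0.32 was -0.20 without it. The part of nerve tissue in these values was not tested. Among further AKT targets, Acly, which supplies acetyl-CoA for lipid synthesis, averaged 1723 ± 1386 CPM in degarelix only rats against 575 ± 395 CPM under FSH, a log2 difference of -1.58 ± 0.66 (adjusted p = 0.187), and Foxo3 had -0.36 ± 0.22.

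Genes that FOXO factors are known to raise when insulin signalling is low were taken as a list of 16, all tested. Of them 1 was called lower and 0 higher, 6.25% against 2.27% of all genes, with 1 higher and 3 lower at an unadjusted p under 0.05 (22.6% of all genes) and 2 lower and 0 higher in DESeq2 (10% of all genes). The median log2 change was -0.13, with 11 below 0 and 5 above. The gene called was Trib1, a pseudokinase that brings targets to the ubiquitin ligase COP1. It ranged from 11.6 to 14.9 CPM without FSH and had 9.72, 8.39, 9.94, 8.41 and 5.09 CPM with FSH. The log2 change was -0.67 ± 0.15 in edgeR's test (adjusted p = 0.0437). Every FSH rat lay below the degarelix only rats, and Trib1 passed in 2 of 11 fits with a rat dropped, again those without replicate 4 of either group, reaching an adjusted p of 0.0965 when FSH replicate 2 was dropped. Bcl6, a transcriptional repressor, averaged 64.0 ± 44.8 CPM in degarelix only rats against 37.5 ± 19.3 CPM under FSH, a log2 difference of -0.78 ± 0.45 (adjusted p = 0.321). That difference was -0.31 without degarelix only replicate 2. Of the 5 genes above 0, Pck1 had the largest log2 change, 0.63 ± 0.51 (adjusted p = 0.490 in edgeR's test). Txnip, the 1 gene higher at an unadjusted p under 0.05, had 0.58 ± 0.21 (adjusted p = 0.135 in edgeR's test).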

How the data were processed

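The authors deposited whole-number counts per Ensembl gene for 11 libraries, 1 per rat, with no normalization, as the values show. The submitters' processing notes name STAR, edgeR, DESeq2 and rn6 with no roles or versions, and the labels' protocols a strand-marking kit. Nothing in the sources used here gives the counting program or its strand setting, so genes that overlap, lie antisense or have near-identical copies are uncertain. 1 row (Pcmt1) with a cell that is not a number was left out, and 12846 genes passed filterByExpr. The groups were compared by edgeR's robust quasi-likelihood F test (version 4.0.16, under R 4.3.3; library factors by TMM, 9 residual degrees of freedom, two-sided), with p-values adjusted over all genes by Benjamini and Hochberg's method and a threshold of 0.05; SEs derive from that test. Correlations used log2 CPM (prior count 2) and all 86400 permutations within groups. A count of 0 allows up to 0.127 to 0.228 CPM (3 counts per library; counting error only). The alternatives used 2 other scalings, 2 other filters, DESeq2 1.42.0, limma-voom 3.58.1 with and without quality weights, no robust estimation, a threshold of 0.10, the replicate number as a block and each rat left out. On simulated data of 12846 genes, the test found 11 of the 50 genes changed 1.3-fold, 27 of those changed 1.5-fold and 43 of those changed 2-fold; 5 of its 131 calls were false. The members and lists were chosen with earlier results of these data known. The genes named are the 10 members, list genes past the threshold, the 2 largest changes per role (mean CPM of 1 or more), and the 3 genes most like each of 5 members. A few of these are left out of the text. Pck1 and Txnip, which were in the list of 16 FOXO targets from the start, were added to the genes named after their values were known. List genes and markers were matched by symbol (191 found, 5 not matched, 1 on several rows).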

Additional observations from a re-analysis of the deposited data

Results flagged for a closer look

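Of 52 groups of values (26 genes in 2 groups), 5 held a rat whose gap to the next rat was large against the group's range. Chance flags about 1 in 20 groups where genes are not chosen by their values. Most genes here other than the members were chosen for large changes, so that rate is no yardstick for them. Prkcq in FSH replicate 3 had 12.2 CPM, where the other FSH rats had 1.35 to 2.40 CPM. Slc2a1 in the same library had 35.6 CPM against 9.30 to 13.1 CPM. That library also held 1313 CPM of Mbp against 52.1 to 90.9 CPM in the other 10 libraries and 64.3 CPM of Sox10 against 1.94 to 4.80 CPM; their part in the values of Prkcq and Slc2a1 was not tested. In the degarelix only group, Pik3cb was high in replicate 6 (63.5 CPM against 38.0 to 42.8 CPM), Rptor in replicate 1 (57.4 CPM against 45.1 to 48.8 CPM) and Bcl6 in replicate 2 (152 CPM against 37.5 to 70.1 CPM). Without those rats the log2 changes were -0.37 for Pik3cb, -0.20 for Rptor and -0.31 for Bcl6. None of the 10 members had such a rat.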

How the results depend on the processing

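The number of members called was 3 or 4 under every alternative that kept all rats except the replicate block, and it ranged from 1 to 4 with 1 rat left out. With 1 rat left out, the calls ranged from 0 to 2 in the pathway list, from 0 to 2 among FOXO targets, from 30 (without FSH replicate 2) to 551 (without FSH replicate 4) over all genes and from 0 to 3 among the pairs of members. Without the low-count filter 0 pathway genes were called (Rhoq, adjusted p = 0.0539). DESeq2 called 5 pathway genes, 2 FOXO targets and 1135 genes in all, limma-voom with quality weights 635 genes in all, and a threshold of 0.10 gave 4 pathway genes and 962 in all. When each pair was refitted without the 2 rats farthest from the median of 1 of its genes, 0 pairs passed. Grb14 turned sign with limma-voom (-0.035, or -0.059 with quality weights) and Slc2a1 with quality weights (-0.044). With 1 rat left out Grb14 ran from -0.22 to 0.26, Grb10 from -0.022 to 0.11 and Slc2a1 from -0.20 to 0.47. The cause was not tested. Same-numbered rats did not clearly deviate together (correlations of deviations between -0.11 and 0.13 over 5 numbers, none correlating best with its own number). No pairing by number was seen, but 5 weak correlations cannot exclude one. The replicate block leaves fewer residual degrees of freedom than the 9 of the main fit. With the replicate block, 0 members, 0 pathway genes, 0 FOXO targets and 14 genes in all passed, with adjusted p of 0.0813 for Pid1, 0.0590 for Irs3 and 0.0896 for Ptpn1.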
